A study of Mus musculus with 15 samples.

Results

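Genes of the amino acid stress response and of tRNA charging, 38 in all, were followed in mouse olfactory bulbs in which signalling through CRHR1, a receptor of the stress peptide corticotropin-releasing hormone (CRH), had been raised or removed. The 38 members are 11 transcription factors and other regulators, 11 enzymes, 4 amino acid transporters and 12 cytosolic tRNA synthetases. Chac1, itself an enzyme, is counted with the regulators. A member was measured by the array probes that carry its name, and by the brightest of them where there were several. All 38 had a probe, 47 probes in all, and all 38 were well above background on all 15 arrays, out of 27441 genes tested.

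Cells that lack amino acids, or whose endoplasmic reticulum is stressed, phosphorylate the translation factor eIF2alpha through the kinases GCN2, PERK, PKR or HRI. General translation then slows while the mRNA of the transcription factor ATF4 is translated better, and ATF4, often paired with a C/EBP protein, switches on genes for amino acid synthesis, amino acid uptake and tRNA charging. ATF4 is therefore controlled largely at translation, which arrays do not measure. Aminoacyl-tRNA synthetases attach each amino acid to its tRNA.

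Each group held 5 male mice aged 6 to 8 weeks, with 1 array per mouse, and an injection of adeno-associated virus (500 nL) into the bulb preceded the sampling by 2 weeks. The virus carried a flex cassette, which is expressed only where Cre recombinase is present. The active CRHR1 group was CRHR1-Cre mice on C57Bl/6 given the virus for (CA)CRHR1, a constitutively active receptor. The knockout group was CRHR1-/- mice on 129S4/SvJae given the GFP virus. The Cre GFP group was CRHR1-Cre mice on C57Bl/6 given the GFP virus, and it stood in for wild type. Cre is named for the CRHR1-Cre groups only. Wherever the knockout is compared, the missing receptor, the strain, Cre and expression of the viral GFP therefore cannot be told apart. Active CRHR1 and Cre GFP bulbs were given different viruses, so receptor signalling, the expressed protein and the virus itself cannot be told apart between them. All 5 active CRHR1 arrays shared slide 2 with Cre GFP arrays 4 and 5, and all 5 knockout arrays shared slide 1 with the remaining 3 Cre GFP arrays.

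A level is the log2 signal relative to the 75th percentile of its array, and a change is a difference of group means in log2 units ± SE. Calls are limma tests with a Benjamini-Hochberg adjusted p under 0.05 over all 27441 genes. The 75th percentile lay between 663.2 and 1172 intensity units, and knockout array 2 stood apart, with 66.9% of probes above background, the highest share. Crhr1 itself lay between 3.57 and 3.83 in active CRHR1 bulbs, between 2.99 and 3.32 in knockout bulbs and between 3.48 and 3.86 in Cre GFP bulbs. The change was 0.09 ± 0.09 with active CRHR1 (limma adjusted p = 0.544) and -0.47 ± 0.09 in the knockout (adjusted p = 0.0146), each against Cre GFP. Whether this probe reads the deleted exons or the viral cDNA was not determined. The summed signal of 9 markers of bulb interneurons was 216 to 263 times the 75th percentile signal in active CRHR1, 237 to 281 in knockout and 265 to 312 in Cre GFP bulbs, and that of 5 mitral and tufted cell markers was 50.7 to 61.7, 58.3 to 65.8 and 56.5 to 67.6.

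The DNA element that ATF4 is known to bind together with C/EBP proteins was looked for in the promoters, because many genes of this response are known to carry it. RefSeq promoter windows (GRCm38.p6, 250 bases before to 50 bases after the start of a gene) were at hand for 29 of the 38 members. The letters TGATGNAA, on either strand, stood in 12 of the 29 windows and in 4.51% of the windows of 27025 genes. Stretches of 6 of these windows follow on the strand of the gene, with the element in capitals, for 4 members that rose with active CRHR1 (Trib3, Atf3, Chac1, Nupr1) and for 2 that were not called against Cre GFP (Asns, Aars).
Trib3, chr2:152344029-152344056, minus strand: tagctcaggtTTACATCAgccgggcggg
Atf3, chr1:191183416-191183463, minus strand: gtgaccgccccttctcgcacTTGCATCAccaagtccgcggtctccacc
Chac1, chr2:119351029-119351076, plus strand: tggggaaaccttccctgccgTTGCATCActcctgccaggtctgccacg
Nupr1, chr7:126625553-126625600, minus strand: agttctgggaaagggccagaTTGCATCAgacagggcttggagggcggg
Asns, chr6:7693215-7693242, minus strand: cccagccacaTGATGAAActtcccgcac
Aars, chr8:111033710-111033757, plus strand: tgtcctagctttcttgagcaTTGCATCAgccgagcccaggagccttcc
The element began 110 bases before the start site in Atf3 and in Nupr1, 193 before it in Chac1, 112 before it in Aars and 23 before it in Asns, and 14 bases after it in Trib3. Gars, Iars, Pck2, Slc7a11, Tars and Yars held it too.

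Members that rose were found with and without the element. Of the 12 holders 4 rose in active CRHR1 against Cre GFP, and of the 17 members without it in the window another 4 rose (Cebpb, Sesn2, Shmt2 and Mthfd2). The core TGACG of cyclic AMP response elements, which cannot match the same letters as the composite element, stood in 12 of 29 windows and in 23.0% of all windows. An interferon element, GAAANNGAA, stood in 0 of 29 windows and in 9.76% of all. A match is only a match of letters, and 9 members, among them Slc7a3, Eif4ebp1, Aldh1l2 and Wars, had no window and were not searched.

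In bulbs with active CRHR1, 11 of the 38 members rose against Cre GFP and 0 fell, which is 28.9% of the members, where 3.90% of all tested genes rose and 4.56% fell. The median change was 0.13 over the members and -0.06 over all genes. By role, those that rose were 7 of 11 regulators, 3 of 11 enzymes, 1 of 4 transporters and 0 of 12 synthetases, with median changes of 0.51, 0.13, 0.04 and 0.02. In bulk tissue a change in the number of cells of a type and a change in RNA per cell cannot be told apart.

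**Figure D1:**
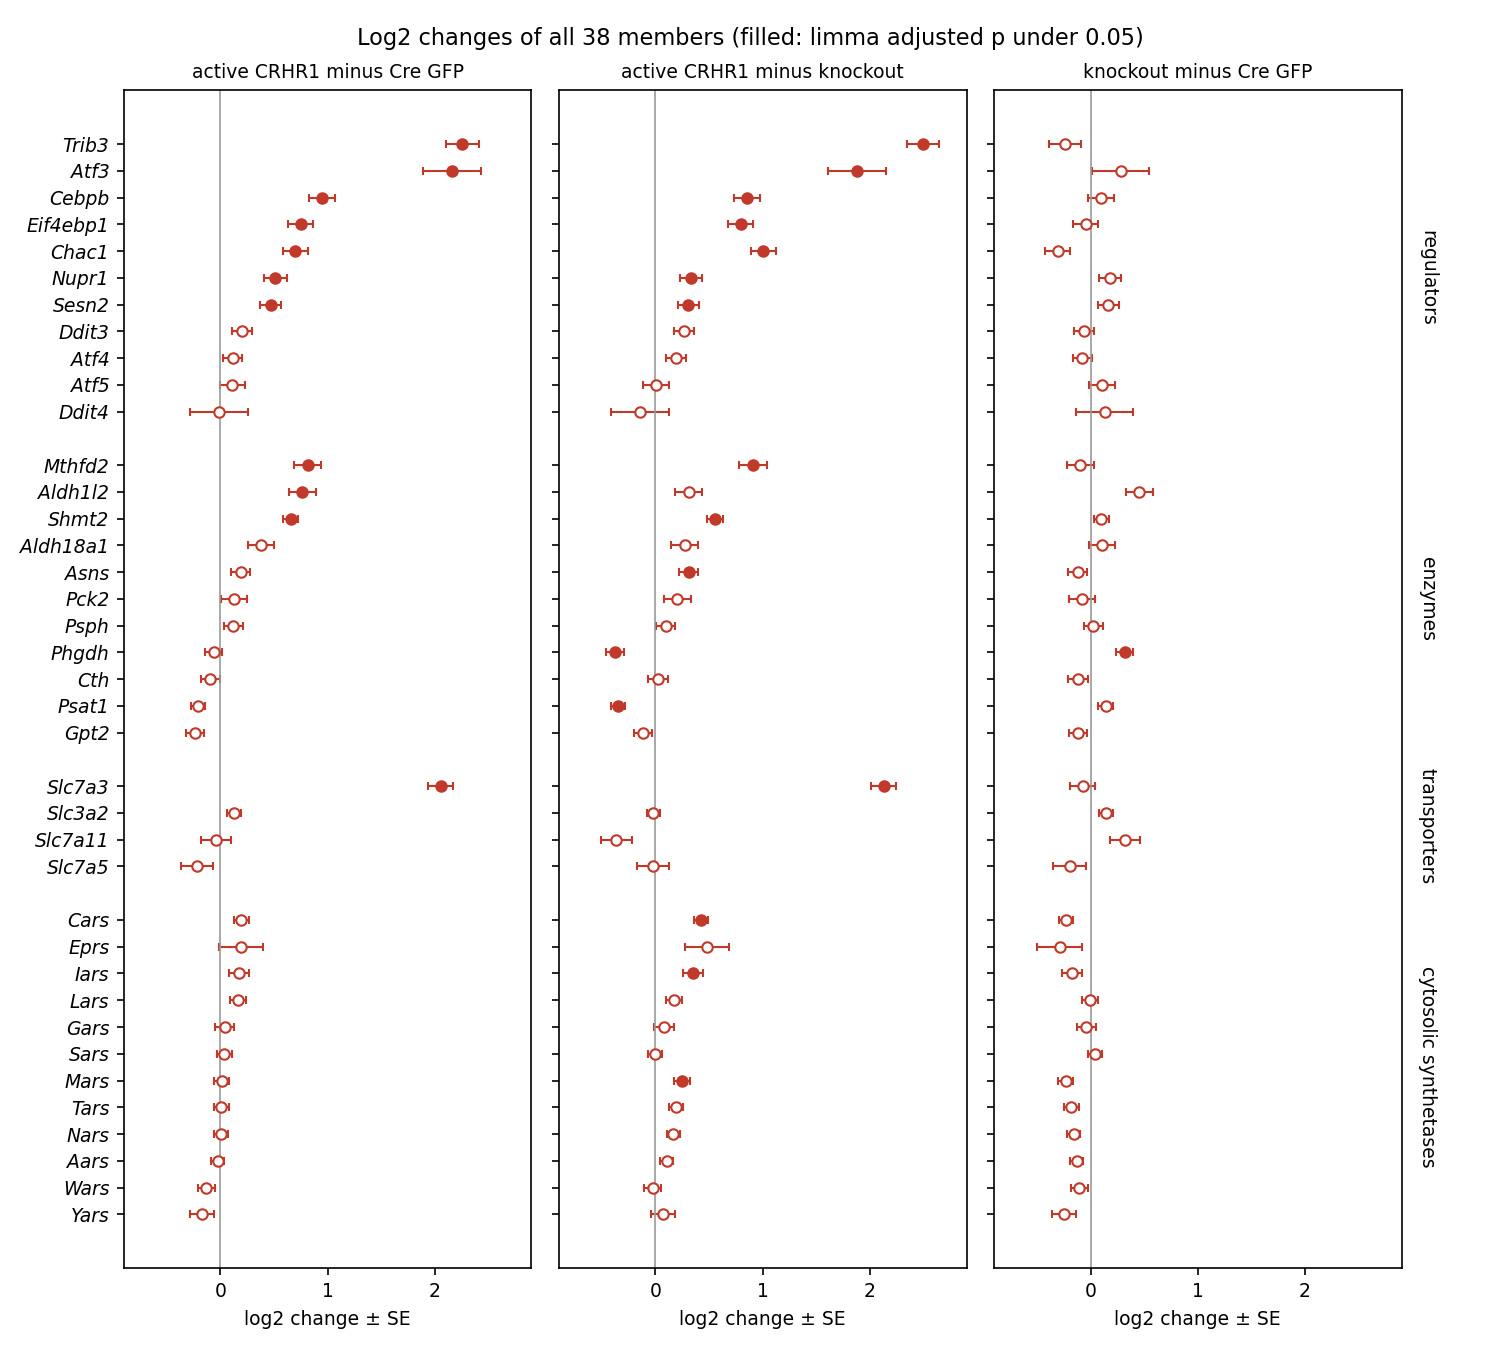
Log2 change ± SE of each of the 38 members, grouped by role, for active CRHR1 minus Cre GFP, active CRHR1 minus knockout and knockout minus Cre GFP; filled points have a limma adjusted p under 0.05. Trib3, Atf3 and Slc7a3 lie near or above 2 in both comparisons of active CRHR1, the synthetases lie within 0.20 of 0 for active CRHR1 minus Cre GFP and reach -0.29 (Eprs) for knockout minus Cre GFP, and 1 member, Phgdh, is filled for the knockout.

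The largest rise among regulators was that of Trib3, a pseudokinase that ATF4 and CHOP induce and that holds back ATF4 and AKT (probe at chr2:152163161-152163220, mm9, minus strand). Its levels were 0.83, -0.022, 0.23, 0.24 and 0.21 on active CRHR1 arrays 1 to 5. They were -2.05, -2.14, -2.15, -2.22 and -2.43 on the knockout arrays, and -2.09, -1.99, -1.51, -2.13 and -2.07 on the Cre GFP arrays. Every active CRHR1 array lay above every array of the other groups, and Cre GFP array 3 lay above the rest of its group. The change against Cre GFP was 2.26 ± 0.15, a 4.78-fold rise (limma adjusted p = 3.37e-06).

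Atf3, a stress-induced transcription factor (chr1:192994547-192994606, mm9, minus strand), rose by 2.16 ± 0.27, or 4.47-fold (adjusted p = 0.000342). Its levels were 0.71, 0.42, 0.40, 0.56 and 0.81 in active CRHR1, against -1.82, -1.91, -1.03, -1.42 and -1.72 in Cre GFP bulbs. The knockout arrays spread widely, from -1.96 to -0.26 on knockout array 5, and also lay below all active CRHR1 arrays. Cebpb, a C/EBP partner of ATF4 and a factor of inflammatory gene expression, lay between 0.19 and 0.81 in active CRHR1, between -0.48 and 0.027 in knockout and between -0.58 and -0.29 in Cre GFP bulbs. Its rise was 0.95 ± 0.12 (adjusted p = 0.000404).

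Another 4 regulators rose by less than 1 log2 unit. Eif4ebp1, the repressor of cap-dependent translation 4E-BP1, rose by 0.75 ± 0.12 (adjusted p = 0.00163), with levels of 0.65 to 1.24 in active CRHR1 and 0.032 to 0.52 in Cre GFP bulbs. Chac1, which degrades glutathione, rose by 0.70 ± 0.12 (adjusted p = 0.00239), with 2.55 to 3.01 in active CRHR1 and 1.71 to 2.36 in Cre GFP bulbs. Nupr1, a stress-induced chromatin protein, rose by 0.51 ± 0.10 (adjusted p = 0.00822) and Sesn2, a leucine sensor that restrains mTORC1, by 0.47 ± 0.10 (adjusted p = 0.0106). In all 4 genes the active CRHR1 and Cre GFP arrays did not overlap. The genes were picked by the test on these same arrays, so this is no further evidence. The share of all tested genes without overlap was not counted.

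The other 4 regulators, Atf4 itself among them, were not called. Atf4 had levels of 6.07, 5.92, 6.04, 6.02 and 5.99 in active CRHR1, against 5.67, 5.97, 5.96, 5.84 and 6.02 in Cre GFP bulbs. These overlap, and the change was 0.11 ± 0.09 (adjusted p = 0.433). Ddit3, which codes for the death-promoting factor CHOP, changed by 0.20 ± 0.09 (adjusted p = 0.180), Atf5 by 0.11 ± 0.12 (adjusted p = 0.570) and Ddit4, an mTORC1 inhibitor, by -0.016 ± 0.27 (adjusted p = 0.978). The Ddit3 and Mars probes lie close together on chromosome 10 on opposite strands. Atf4 had 2 probes, and the values above are of the brighter. Its dimmer probe changed by 0.11 ± 0.08 (limma unadjusted p = 0.203). On that probe the knockout changed by -0.24 ± 0.08 against Cre GFP (unadjusted p = 0.00903), beside -0.08 ± 0.09 on the brighter. Active CRHR1 minus knockout was 0.35 ± 0.08 (unadjusted p = 0.000669), beside 0.19 ± 0.09. With slide as a block the dimmer probe gave -0.21 ± 0.09 and 0.26 ± 0.14 for these comparisons.

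**Figure D2:**
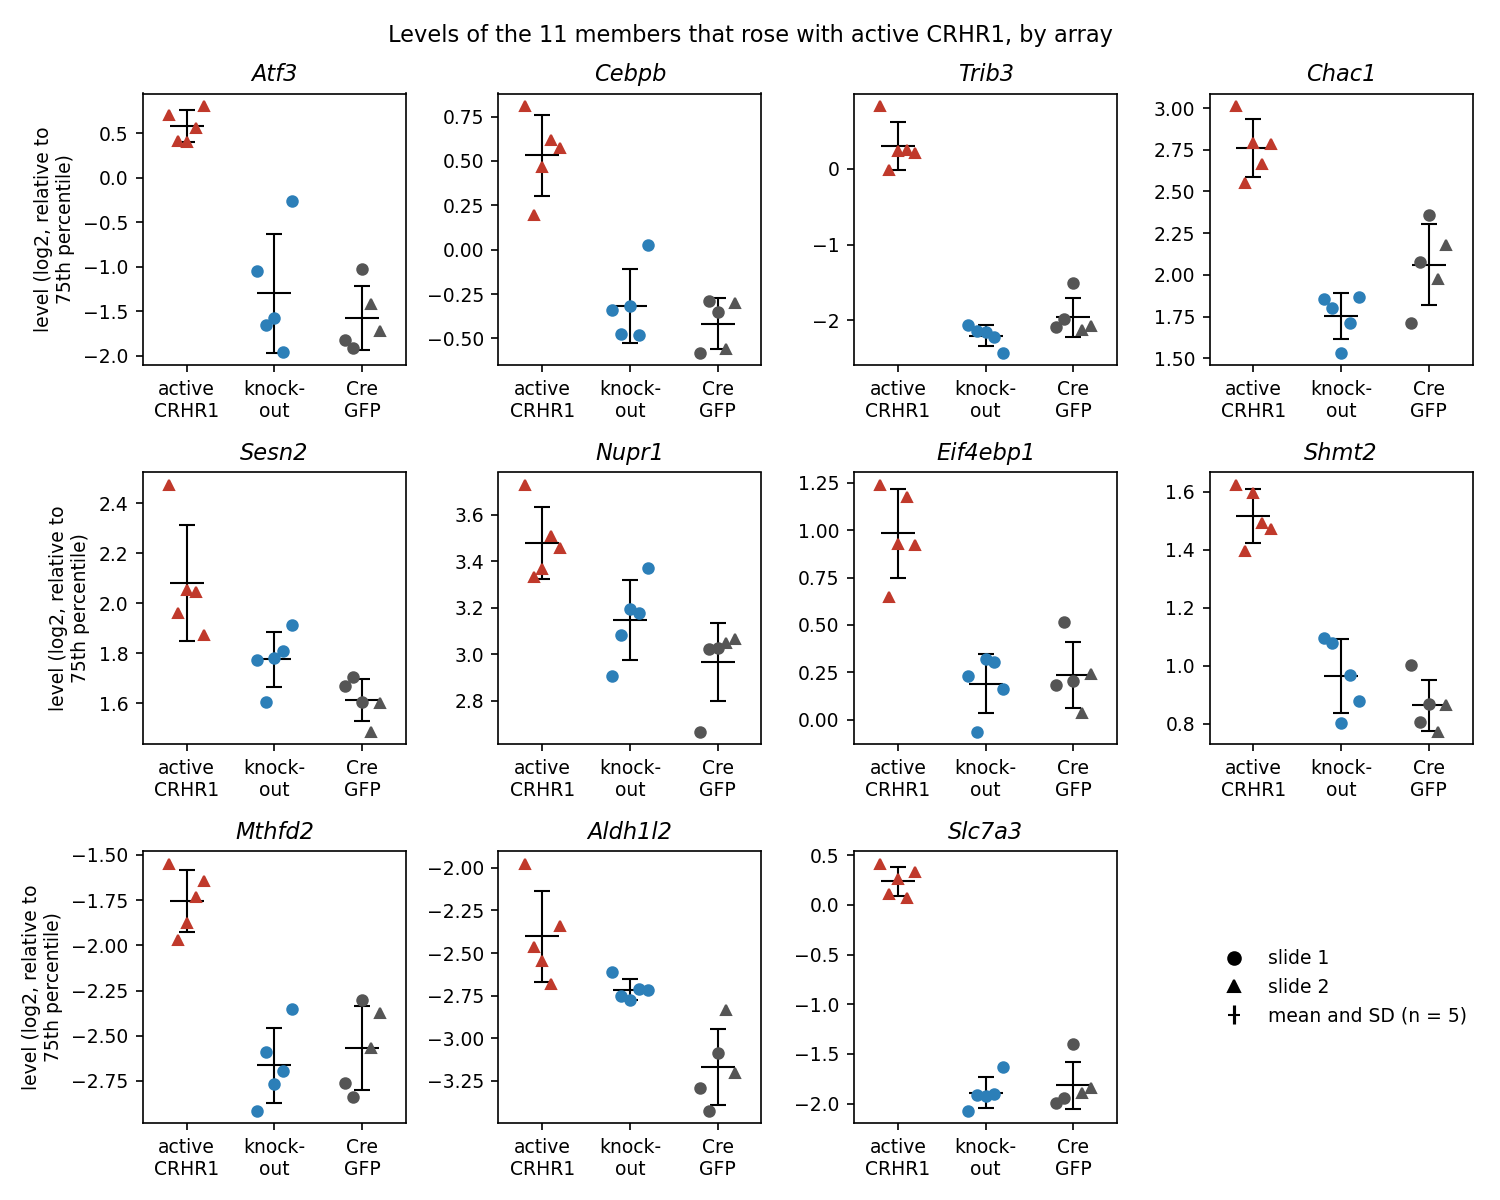
Levels (log2, relative to the 75th percentile of the array) of the 11 members that rose in active CRHR1 against Cre GFP bulbs, with each array a point, circles for slide 1 and triangles for slide 2, and bars for mean and SD (n = 5). In all 11 panels the active CRHR1 points lie above all Cre GFP points. The 11 were picked by the test on these same arrays, so this separation is no further evidence. The share of all tested genes without overlap was not counted. Active CRHR1 array 1 (the leftmost point of its group) is the highest in 10 of the 11.

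The 3 members of the enzyme group that rose all belong to mitochondrial one-carbon metabolism. Shmt2, which takes a one-carbon unit from serine in mitochondria, had levels of 1.62, 1.40, 1.60, 1.49 and 1.47 in active CRHR1, against 1.00, 0.81, 0.87, 0.77 and 0.86 in Cre GFP bulbs. The groups did not overlap, and the rise was 0.65 ± 0.07 (adjusted p = 0.000255). Mthfd2, the folate dehydrogenase and cyclohydrolase of the same route, rose by 0.81 ± 0.13 (adjusted p = 0.00141), with levels of -1.97 to -1.55 in active CRHR1 and -2.84 to -2.30 in Cre GFP bulbs. Aldh1l2, which oxidises mitochondrial formyl-tetrahydrofolate, rose by 0.76 ± 0.13 (adjusted p = 0.00208). Its knockout arrays, at -2.78 to -2.61, also lay above all Cre GFP arrays, at -3.42 to -2.83, but that change of 0.45 ± 0.13 missed the threshold (adjusted p = 0.0657). The knockout change was called without active CRHR1 array 1 (adjusted p = 0.033), without Cre GFP array 4 (adjusted p = 0.0432) and with normexp background correction (adjusted p = 0.0274). Active CRHR1 minus knockout was 0.31 ± 0.13 (adjusted p = 0.0793). With slide as a block the changes against Cre GFP were 0.61 in active CRHR1 and 0.55 in the knockout, and active CRHR1 minus knockout was 0.06 (adjusted p = 0.869).

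The enzymes that make serine and asparagine were not called. Asns, asparagine synthetase and a classic ATF4 target, had levels of 4.94, 4.88, 4.94, 4.94 and 4.88 in active CRHR1, against 4.45, 4.74, 4.87, 4.67 and 4.91 in Cre GFP bulbs, a change of 0.19 ± 0.09 (adjusted p = 0.186). With quantile normalization Asns was called (0.28, adjusted p = 0.0159), and with slide as a block it was not (0.13, adjusted p = 0.538). Phgdh, Psat1 and Psph, the 3 steps of serine synthesis, changed by -0.06, -0.21 and 0.12 (adjusted p = 0.653, 0.0717 and 0.404). All Psat1 arrays of active CRHR1, at 3.29 to 3.42, lay below those of Cre GFP, at 3.49 to 3.67. The remaining enzymes, Aldh18a1 of proline synthesis, Cth of cysteine synthesis, the alanine aminotransferase Gpt2 and the mitochondrial Pck2, ranged between -0.23 and 0.38 and none was called.

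Of the 4 transporters 1 rose. Slc7a3, a carrier of cationic amino acids such as arginine and lysine (chrX:98274644-98274703, mm9, minus strand), had levels of 0.41, 0.11, 0.26, 0.074 and 0.34 in active CRHR1 bulbs. They were -2.07, -1.92, -1.92, -1.90 and -1.63 in knockout and -1.99, -1.94, -1.41, -1.89 and -1.85 in Cre GFP bulbs. No active CRHR1 array overlapped another group, and the rise of 2.05 ± 0.12, or 4.15-fold, had the smallest adjusted p of all 38 members (1.2e-06). Slc3a2, the shared heavy chain of several amino acid exchangers, and its partner Slc7a11, the cystine importer, changed by 0.13 ± 0.06 (adjusted p = 0.209) and -0.04 ± 0.14 (adjusted p = 0.879).

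Slc7a5, the light chain of the leucine exchanger, depended on the probe. Its brighter probe (chr8:124430996-124431055, mm9, minus strand) overlapped between groups and changed by -0.22 ± 0.15 (adjusted p = 0.367). On its second probe (chr8:124405136-124405195) the levels were -0.27, -0.40, -0.18, -0.33 and -0.31 in active CRHR1, against -0.95, -0.61, -0.996, -0.91 and -0.57 in Cre GFP bulbs. These did not overlap, and the change was 0.51 ± 0.10 (limma unadjusted p = 0.000202), or 0.44 ± 0.14 with slide as a block. Which exon or transcript each probe reports was not determined. The other 7 members with several probes were Aars, Atf4, Cth, Phgdh, Psat1, Psph and Wars, and among these the sign against Cre GFP differed between probes for Aars only, whose second probe was above background on 0 knockout arrays.

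**Figure D3:**
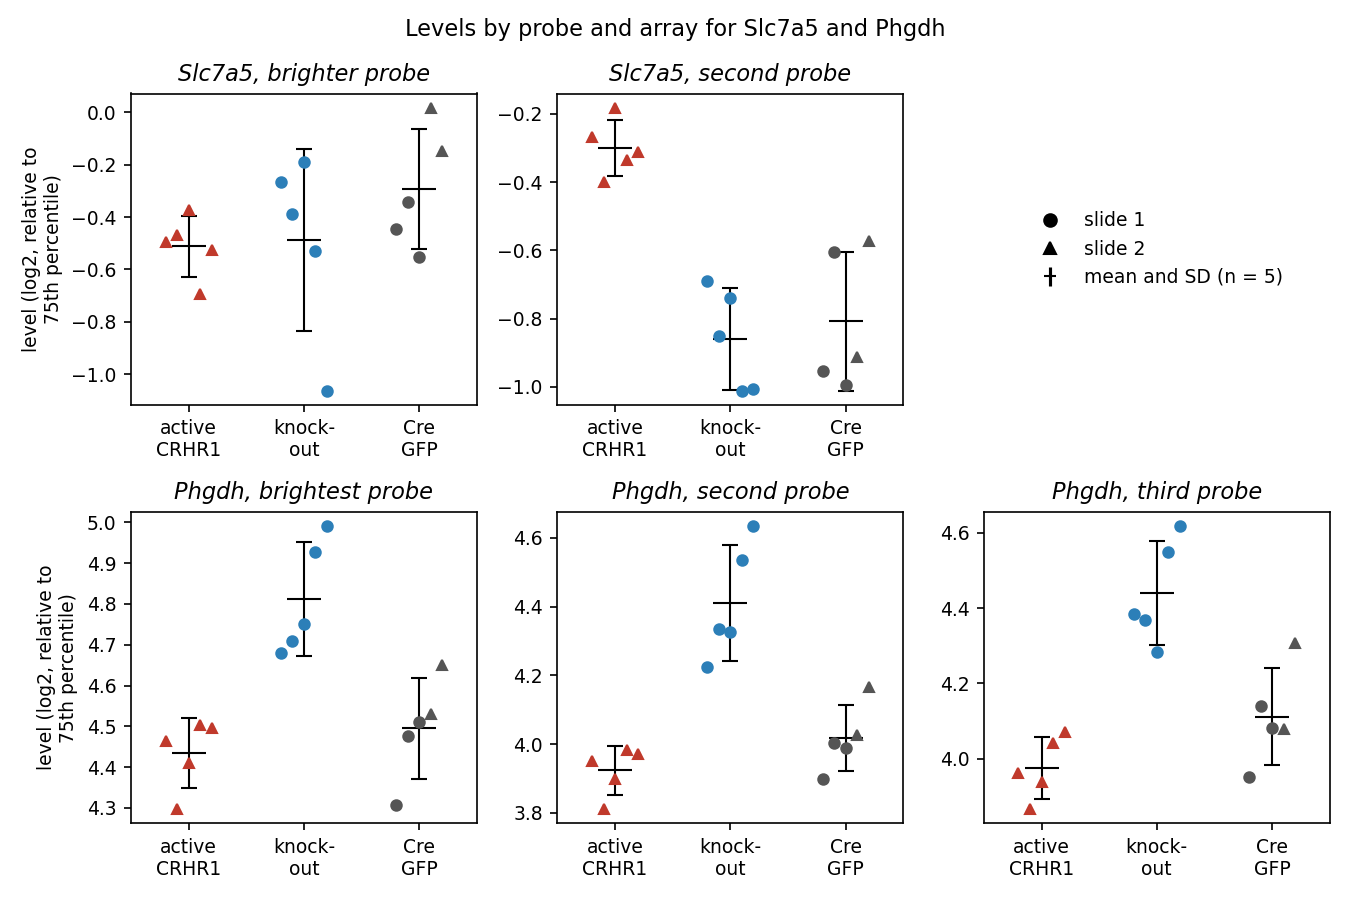
Levels (log2, relative to the 75th percentile) of the 2 Slc7a5 and the 3 Phgdh probes, with each array a point, circles for slide 1 and triangles for slide 2, and bars for mean and SD (n = 5). The second Slc7a5 probe is higher on all active CRHR1 arrays, between -0.40 and -0.18, than on any other, while the brighter one overlaps; all 3 Phgdh probes are highest in the knockout.

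No cytosolic synthetase was called against Cre GFP, although Cars was called in some alternative settings. Of the 12, 2 had an unadjusted p under 0.05, and the changes ran from -0.17 (Yars, for tyrosine) to 0.20 (Cars, for cysteine) with a median of 0.02. Of the 12, 9 were above 0, 5 with slide as a block, and 4 with arrays centred on their median, so no common direction is given. Cars came closest: its levels were 4.02, 3.93, 3.93, 3.89 and 4.00 in active CRHR1, against 3.62, 3.72, 3.85, 3.78 and 3.83 in Cre GFP bulbs. The groups did not overlap, but the change of 0.20 ± 0.07 missed the threshold (adjusted p = 0.0844). Cars was called with quantile normalization (0.30, adjusted p = 0.005) and array weights (0.16, adjusted p = 0.0272). It was also called without knockout array 5 (adjusted p = 0.0327) and without knockout arrays 2 and 5 together (adjusted p = 0.0476). Settings that left it uncalled included blocking on slide (0.15) and centring arrays on their median (0.10). Wars, for tryptophan, which interferon gamma induces in human cells, changed by -0.13 ± 0.08 (adjusted p = 0.301), with 4.65 to 4.74 in active CRHR1 and 4.57 to 4.97 in Cre GFP bulbs.

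The 7 lists around the pathway held 81 genes. In active CRHR1 against Cre GFP 4 of them rose, or 4.94%, and 1 fell, or 1.23%. The shares over all tested genes were 3.90% and 4.56%. Of 14 genes for eIF2alpha kinases, phosphatase subunits and eIF2 and eIF2B subunits, 1 rose and 0 fell in active CRHR1 against Cre GFP (median 0.05). It was Eif2ak2, which codes for PKR, the kinase that senses double-stranded RNA and that interferon induces: its level was -0.74 ± 0.51 in active CRHR1, -1.24 ± 0.47 in knockout and -2.55 ± 0.35 in Cre GFP bulbs (SD, n = 5 each). The rise was 1.81 ± 0.27 in active CRHR1 (adjusted p = 0.000968) and 1.31 ± 0.27 in the knockout (adjusted p = 0.0183), against the same Cre GFP arrays. With slide as a block these were 1.77 (adjusted p = 0.0183) and 1.34 (adjusted p = 0.0590).

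Of 9 genes of the unfolded protein response outside the ATF4 arm, 1 rose, Edem1 of endoplasmic reticulum degradation, by 0.33 ± 0.06 (adjusted p = 0.00494), and by 0.35 with slide as a block (adjusted p = 0.0356). Of 12 other amino acid transporters 1 rose, Slc7a7, by 0.62 ± 0.13 (adjusted p = 0.0110), and of 7 NRF2 targets 1 rose, the haem oxygenase Hmox1, by 0.54 ± 0.14 (adjusted p = 0.0332). Both missed the threshold with slide as a block (adjusted p = 0.0694 and 0.0636). Among 17 mitochondrial synthetases 0 rose and 1 fell, Pars2, by -0.27 ± 0.07 (adjusted p = 0.0379; 0.137 with the block). Of 11 other cytosolic synthetases and scaffold proteins, and of 11 genes of amino acid and mTORC1 sensing, 0 were called and the medians were -0.12 and -0.05 (limma; 0 and 3 of them had an unadjusted p under 0.05).

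Interferon and immune cell genes rose in the same group as the 11 members. All 12 tested genes of a 13-gene interferon list rose in active CRHR1 against Cre GFP (median 3.20; Ido1 was not tested), and 0 were called in the knockout. In the knockout 11 of these 12 genes lay above 0 against Cre GFP, with a median of 0.63, where the median over all genes was 0.005. Their summed signal, in multiples of the 75th percentile signal, was 244, 51.6, 109, 124 and 137 on active CRHR1 arrays 1 to 5, 12.4 to 47.3 on knockout arrays and 10.3 to 23.6 on Cre GFP arrays. Array 1 of active CRHR1 was the highest in this sum and in 10 of the 11 members. Array 2 was the lowest in the sum and in 7 of the 11. How often these arrays were highest or lowest over all tested genes was not counted. Of 10 microglia and macrophage markers 7 rose and 0 fell, with sums of 105 to 150, 83.7 to 101 and 73 to 93.2 in active CRHR1, knockout and Cre GFP bulbs. Here active CRHR1 arrays 4 and 5 were the highest, at 150 each, array 1 had 138 and array 2 was the lowest, at 105. Of 8 T cell markers 6 were tested and 4 rose, with sums of 1.64 to 3.07, 1.57 to 2.38 and 1.63 to 2.13, while Cd8a did not pass the filter and Trac had no probe by that name. Of 6 astrocyte markers 1 rose, Gfap (0.87 ± 0.21, adjusted p = 0.0219), and of 9 interneuron markers 3 fell. The part of these cells and genes in the change of the 11 members was not tested.

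Slide bears on these results, since active CRHR1 arrays lay on slide 2 only. With slide as a fixed block 9 of the 11 rises were called. Nupr1 (0.42, adjusted p = 0.108) and Aldh1l2 (0.61, adjusted p = 0.0547) were not. Among slide 2 arrays alone, 5 active CRHR1 against 2 Cre GFP, 4 were called: Trib3 (2.40, adjusted p = 0.0215), Atf3 (2.15, adjusted p = 0.00949), Slc7a3 (2.11, adjusted p = 0.00438) and Shmt2 (0.70, adjusted p = 0.0371). All 11 were called whichever of the 15 arrays was left out. Nupr1 and Sesn2 lost their calls with arrays centred on their median (adjusted p = 0.0976 and 0.108).

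**Figure D4:**
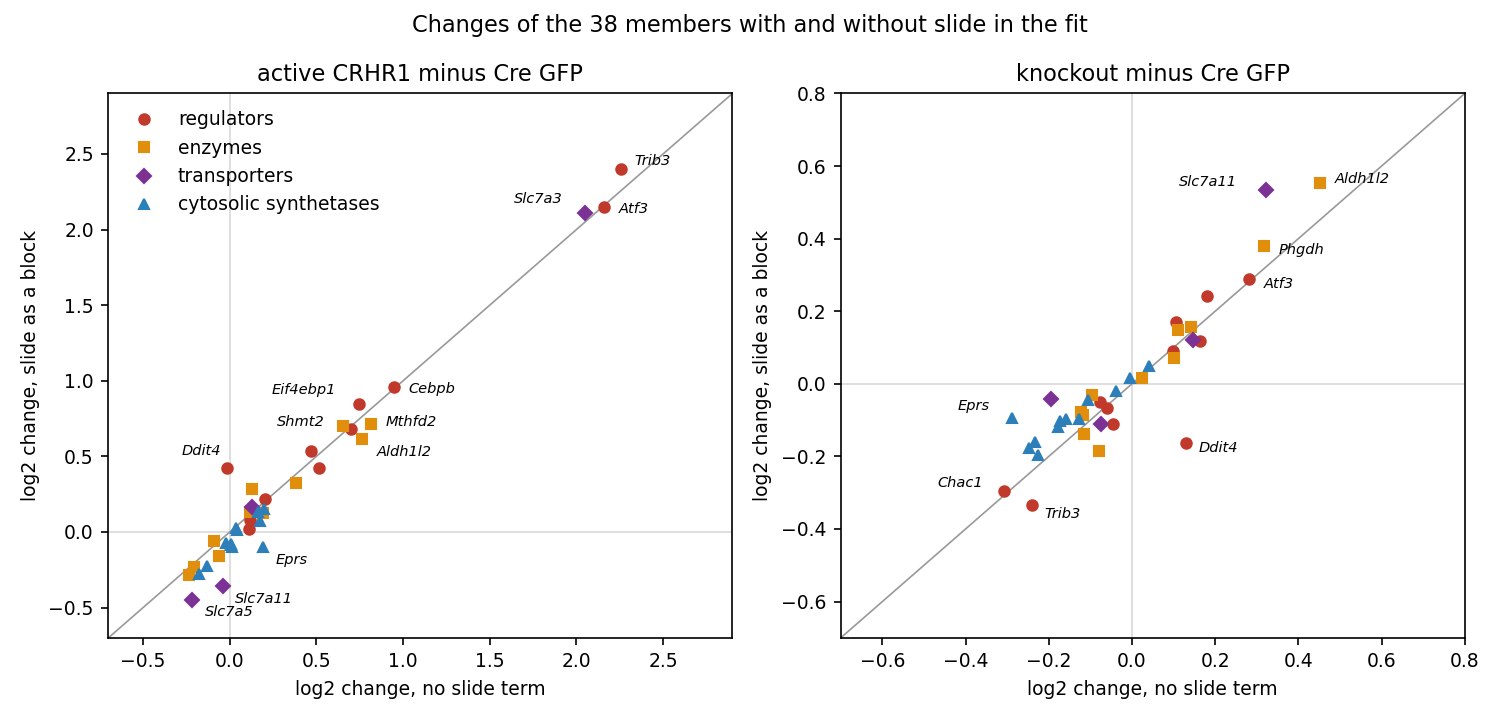
Log2 change of each of the 38 members without slide in the fit (horizontal axis) and with slide as a block (vertical axis), for active CRHR1 minus Cre GFP on the left and knockout minus Cre GFP on the right; the grey diagonal marks equal values. Trib3, Atf3 and Slc7a3 stay above 2 on both axes, while Ddit4 moves to 0.43 with the block, against -0.016 without it.

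Loss of CRHR1 came with another strain, and 1 member was called. In the knockout against Cre GFP 1 of 38 members rose, or 2.63%, and 0 fell, where 1.95% of all tested genes rose and 1.38% fell. The median was -0.07 over the members and 0.005 over all genes. The member was Phgdh, the first enzyme of serine synthesis. Its levels were 4.68, 4.71, 4.75, 4.93 and 4.99 in knockout bulbs, against 4.31, 4.48, 4.51, 4.53 and 4.65 in Cre GFP bulbs, without overlap. The change was 0.32 ± 0.08 (adjusted p = 0.0442).

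Some glial markers were higher in the same knockout bulbs. Of 6 astrocyte markers 2 rose against Cre GFP and 0 fell: the glutamate transporter Slc1a3 by 0.37 ± 0.08 (adjusted p = 0.0241) and the water channel Aqp4 by 0.34 ± 0.08 (adjusted p = 0.0414), with summed signals of 264 to 370 in knockout and 294 to 355 in Cre GFP bulbs. Gfap, the astrocyte filament gene, changed by -0.80 ± 0.21 (adjusted p = 0.0525). Of the 4 ensheathing glia markers given here, Ngfr (0.75), Npy (0.53) and Sox10 (0.32) rose and Frzb changed by 0.23 (adjusted p = 0.00331, 0.0134, 0.0489 and 0.146). Their sums, 52 to 67.3 in knockout and 39.6 to 48 in Cre GFP bulbs, did not overlap. Of the 4 oligodendrocyte markers given here 1 rose, the myelin gene Mbp (0.41 ± 0.10, adjusted p = 0.0424), while Mog, Mag and Cnp changed by 0.29, 0.21 and 0.23, and the sums overlapped at 43.9 to 57.6 and 40.6 to 48.7. Ngfr and Npy were also called in the fit that blocks on slide (adjusted p = 0.0146 and 0.0222), and Slc1a3, Aqp4, Sox10 and Mbp were not (adjusted p = 0.0521 to 0.0977). The part of these cells in the Phgdh change was not tested.

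The Phgdh call was a borderline one, lost in 12 of 15 omissions of 1 array, with a highest adjusted p of 0.108, and held without active CRHR1 array 2, knockout array 1 or Cre GFP array 5. With slide as a block the change was 0.38 (adjusted p = 0.0547). The brightest Phgdh probe has its position on chromosome 17 (53337968 to 53338027, plus strand, mm9), while the other 2 are on chromosome 3 (98117215 to 98117274 and 98117303 to 98117361, minus strand), and these gave 0.39 ± 0.08 and 0.33 ± 0.08. Signal from the gene and from a copy elsewhere cannot be told apart by these values.

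Among regulators the smallest p in the knockout belonged to Chac1 (-0.31 ± 0.12, adjusted p = 0.165), and among transporters to Slc3a2 (0.15 ± 0.06, adjusted p = 0.214). Trib3, Atf3 and Slc7a3 changed by -0.24, 0.28 and -0.07 and were not called. Of the 12 synthetases 11 lay below 0, where 49.0% of all tested genes did, and 5 had an unadjusted p under 0.05, against 19.8% of all genes, while 0 were called by limma after adjustment. Their median was -0.17, and -0.097 with slide as a block, which left 10 below 0. The smallest p was that of Cars, at 3.46, 3.51, 3.48, 3.46 and 3.74 in knockout and 3.62 to 3.85 in Cre GFP bulbs (-0.23 ± 0.07, adjusted p = 0.0802). Without knockout array 5, which was the high one, Cars was called (-0.28, adjusted p = 0.0229). Slc7a11 changed by 0.32 ± 0.14 (adjusted p = 0.223), and by 0.53 with slide as a block (adjusted p = 0.0529).

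Around the set 3 of the 81 genes rose in the knockout against Cre GFP and 2 fell, or 3.70% and 2.47%, beside 1.95% and 1.38% of all genes. Eif2ak2 is described above, and 2 of the others were the glutathione reductase gene Gsr (0.52 ± 0.11, adjusted p = 0.0176), 1 of 7 NRF2 targets, and Aars2 (-0.22 ± 0.05, adjusted p = 0.0306), 1 of 17 mitochondrial synthetases. Of 12 other transporters the neutral amino acid carrier Slc1a5 rose by 0.46 ± 0.11 (adjusted p = 0.0348) and the arginine carrier Slc7a2 fell by 1.11 ± 0.23 (adjusted p = 0.0175). In the fit that blocks on slide none of these 4 was called (adjusted p = 0.0625 to 0.131).

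Set directly against the knockout, active CRHR1 bulbs had 14 members higher, or 36.8%, and 2 lower, or 5.26%, where 9.43% of all tested genes were higher and 16.2% lower. Strain differs here as well, no slide holds both groups, and the Cre GFP bulbs are not used in the difference. The higher ones were the 7 regulators named above, Slc7a3 (2.13 ± 0.12), the enzymes Mthfd2, Shmt2 and Asns (0.91, 0.55 and 0.31), and the synthetases Cars (0.42 ± 0.07, adjusted p = 0.00118), Iars (0.35 ± 0.09, adjusted p = 0.0186) and Mars, now Mars1 (0.25 ± 0.07, adjusted p = 0.0274). Asns arrays of active CRHR1, at 4.88 to 4.94, lay above all knockout arrays, at 4.47 to 4.83. Cars, at 3.89 to 4.02 in active CRHR1 and 3.46 to 3.74 in knockout bulbs, did not overlap either.

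Of the serine synthesis enzymes 2 were lower. Psat1, the second step, had levels of 3.31, 3.29, 3.38, 3.35 and 3.42 in active CRHR1, against 3.54, 3.69, 3.62, 3.78 and 3.87 in knockout bulbs. The difference was -0.35 ± 0.07 (adjusted p = 0.00358), and that of Phgdh was -0.38 ± 0.08 (adjusted p = 0.00579), both without overlap. The other 2 Phgdh probes gave -0.49 and -0.46, and the second Psat1 probe -0.28. The 4 oligodendrocyte markers given here, Mbp (-0.64), Mog (-0.73), Mag (-0.44) and Cnp (-0.48), and the 4 of ensheathing glia, Npy (-0.69), Frzb (-0.47), Ngfr (-0.99) and Sox10 (-0.31), were lower as well (adjusted p = 0.000184 to 0.0181). Their sums did not overlap, at 29.8 to 43.2 in active CRHR1 against 43.9 to 57.6 in knockout bulbs for oligodendrocytes, and 35.9 to 43.8 against 52 to 67.3 for ensheathing glia. Blocking on slide left Mog, Npy, Frzb and Ngfr called (adjusted p = 0.0237 to 0.0299) and the other 4 not (adjusted p = 0.0560 to 0.0968). Of the astrocyte markers Slc1a3 was lower (-0.55) and Gfap higher (1.67). All 12 interferon genes and 5 of 10 microglia and macrophage markers were higher, and 1 of these 10 markers was lower. The part of these cells and genes was not tested.

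This comparison depended on single arrays and on slide. Without active CRHR1 array 1 the count of higher members was 9, and Asns, Iars, Mars, Nupr1 and Sesn2 were not called. Mars also missed the threshold without active CRHR1 array 3 or 5 or knockout array 4, Nupr1 without active CRHR1 array 4 or 5 or knockout array 1, 2 or 4, and Sesn2 without active CRHR1 array 3 or 4 or any of knockout arrays 1 to 4. Without knockout arrays 2 and 5 together, left out after the data were seen, 12 were higher. With slide as a block 5 were higher (Trib3, Slc7a3, Shmt2, Chac1 and Eif4ebp1) and 1 lower, Slc7a11 (-0.89, adjusted p = 0.0311). The synthetase calls were then lost (Cars 0.35, adjusted p = 0.128).

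Of the genes around the set 8 of 81 were higher in active CRHR1 than in the knockout, or 9.88%, and 7 lower, or 8.64%, beside 9.43% and 16.2% of all genes. By list, 3 of 9 unfolded protein response genes were higher: Edem1 (0.29), Ern1 (0.32) and Dnajb9 (0.25). Of 12 other transporters 3 were higher, Slc7a2 (0.98), Slc7a1 (0.24) and Slc38a1 (0.24), and 1 was lower, Slc1a5 (-0.54). The valine synthetase gene Vars was higher by 0.64 ± 0.13 (adjusted p = 0.00455) and the histidine synthetase gene Hars lower by -0.76 ± 0.23 (adjusted p = 0.0314), of 11 in their list. Of 7 NRF2 targets 1 was higher, Hmox1 (0.46), and 3 lower, Gsr (-0.53), Gclm (-0.34) and Txnrd1 (-0.20). The eIF2B subunit genes Eif2b1 (-0.18) and Eif2b3 (-0.22) were lower, of 14 in their list. With slide as a block none of these 15 genes was called (adjusted p = 0.103 to 0.597).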

How the data were processed

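Bulb RNA was extracted with TRIzol, treated with DNase I and labelled with Cy3 (100 ng, low input amplification), per the labels' protocols. The deposited scanner files hold 62976 spot intensities per array, which per the file headers Agilent Feature Extraction 10.7.3.1 background-subtracted and detrended within each array and did not scale between arrays. Other columns hold flags that the same program set, per the file headers. The authors' deposited series values equal the processed intensity divided by the array's median over non-control spots, which was found by comparison with the scanner values, with column medians of 0.899 to 0.935. Probe coordinates are of build mm9, per the file headers.

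Levels are log2 processed signals less the 75th percentile of the array, averaged over the spots of a probe, with control and outlier spots dropped. Probes passed when at least 4 of 5 arrays in some group were well above background (33968 of 55681), and the brightest passing probe stood for a gene. RefSeq names matched 27509 probes through accessions. The 3 comparisons were fitted together over 15 arrays with limma 3.58.1 in R 4.3.3, without covariates, and the fit was tested on simulated data. The mice are separate samples per the labels, and the number of arrays limits the precision. No member value was missing.

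The members and gene lists were chosen with earlier results of these data known. Some marker results are not reported here. Named were members called in any comparison, the member of smallest p per role and comparison, members whose call changed with slide or 1 array, and up to 4 called genes per other list. The Slc7a5 probes, the second Atf4 probe, the remaining uncalled members and Eif2ak2 under the block were named after their values were seen. So were Wars and the glial markers that were not called. Alternatives were slide as a fixed or random block or within a slide, quantile normalization, median centring, normexp with an offset of 50, the authors' values, other filters and probe rules, a fit of 2 groups, an intensity trend, array weights, a replicate block, and each array left out. Software was version 1.17.8 of the data.table package, pandas 2.3.3 and, for the figures, matplotlib 3.10.9.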

Additional observations from a re-analysis of the deposited data

Results flagged for a closer look

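In 7 of 114 groups of 5 arrays (38 members in 3 groups) 1 array lay far from the others by Dixon's test, where chance gives about 1 in 20. Of these 7, 5 were Cre GFP groups.

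Cre GFP array 3 was high in Trib3, at -1.51 with the others between -2.13 and -1.99, and in Slc7a3, at -1.40 with the others between -1.99 and -1.85, both below every active CRHR1 array. It was the highest of its group in 5 of the 11 members that rose. Cre GFP array 5 was low in Ddit4, at 3.58 with the others between 4.79 and 5.10, and this is the gene whose change moved most with slide as a block. Cre GFP array 1 was low in Nupr1, at 2.67 with the others between 3.02 and 3.07, and Cre GFP array 2 was low in Aldh18a1, at -1.47 with the others between -1.15 and -1.08.

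In the other groups, active CRHR1 array 4 was low in Tars, at 2.09 with the others between 2.23 and 2.28, and knockout array 5 was high in Cars, at 3.74 with the others between 3.46 and 3.51. Knockout array 5 was also the highest of its group in 7 of the 11 members that rose with active CRHR1.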

How the results depend on the processing

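As reported, active CRHR1 differed from Cre GFP in 2321 genes, the knockout from Cre GFP in 914, and active CRHR1 from the knockout in 7045. Members higher and lower were 11 and 0, 1 and 0, and 14 and 2. With slide as a fixed block 1012, 389 and 680 genes were called, 0 members rose in the knockout, and 5 were higher and 1 lower in active CRHR1 than in the knockout. As a random block slide gave 10683 genes and 22 higher members for the last comparison. Within 1 slide 329 genes and 4 members were called for active CRHR1 and 115 genes and 0 members for the knockout. Quantile normalization gave 14 higher members in active CRHR1 against Cre GFP, with Asns (0.28, adjusted p = 0.0159) and Cars (0.30, adjusted p = 0.005) among them. It also gave 1399 genes and 1 lower member in the knockout and 22 higher members in active CRHR1 against knockout. With arrays centred on their median 1270, 403 and 4269 genes were called, with 0 members higher in the knockout and 9 in the last comparison, and the authors' values gave 1300, 459 and 4430 genes with 0 and 9 members. These scalings moved the share of higher calls, which was 46.1%, 58.6% and 36.7%, to 56.3%, 33.0% and 48.6% with median centring. The median of all genes moved to -0.16, -0.05 and -0.11.

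Normexp gave 1376 genes, 2 higher and 1 lower member in the knockout. Without a filter 1225 genes were called for active CRHR1 and 389 genes with 0 higher members for the knockout. A fit of the 2 groups gave 494 genes and 0 members in the knockout. The mean of a gene's probes, and an intensity trend, each gave 1 lower member in active CRHR1 against Cre GFP, Psat1. Array weights gave 6456 and 3371 genes for the comparisons with Cre GFP, with 3 and 8 lower members. Without knockout arrays 2 and 5, chosen after seeing the data, 332 and 3047 genes were called in the comparisons with the knockout, and 0 members rose in it. The cause of these shifts was not tested.

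Leaving out 1 array at a time gave 1182 to 3621, 431 to 956 and 4159 to 7950 genes, members higher of 11 to 12, 0 to 1 and 9 to 18, and members lower of 0 to 1, 0 to 1 and 2 to 3. Without active CRHR1 array 1 the counts were 1182 and 4195 genes. Replicate numbers did not pair the arrays: the deviations of same-numbered arrays correlated between -0.219 and 0.405, over 0.1 in 3 of 15 pairs, and 4 arrays correlated best with their own number. The replicate block gave 1517 and 560 genes in the comparisons with Cre GFP. All members were above background on every array, but the size of a change in dim members depended on the background correction. With normexp Mthfd2 and Aldh1l2 each rose by 0.53 in active CRHR1 against Cre GFP, beside 0.81 and 0.76 as reported. The count of members that rose stayed at 11.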
